A study of Sus scrofa with 3 samples.

Results

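The Toll-like receptor genes and their adaptors were followed in the liver of male Chinese Wuzhishan miniature pigs on a diet rich in fat and cholesterol (HFC diet). The members were chosen by gene symbol, and 10 of the 34579 features in the deposited tables belong to the set: TLR1, TLR2, TLR3, TLR4, TLR5, TLR7, TLR8, TLR9, CD14 and MYD88. All 10 were mRNA features. Each reached 1 FPKM (fragments per kilobase of exon, scaled to the fragments mapped) in every library. None was therefore lost to the filter on low values. The deposited values were computed with a smaller divisor than a standard FPKM, so they run higher and the filter is milder than its number implies. The groups were intact males after a sham operation (IM), surgically castrated males (CM), and castrated males given testosterone propionate by weekly intramuscular injection from the day of castration (CMT). The labelled age was 6 to 7 months in all groups. According to the paper, the pigs had this age when they were obtained. Acclimation, surgery and weeks of HFC feeding followed, so the pigs were older when the livers were taken. All 3 groups received the HFC diet, so no group shows the liver on a standard diet. Total RNA of the pigs of a group was pooled in equal amounts before 1 library was made, and the sample labels give 3 pigs per pool, of 6 kept per group. With 1 library per group there was no replicate error, and no p-value was computed. A difference was counted when the FPKM values differed by at least 1.5-fold. Read numbers were recovered from the steps between deposited values and gave 95% exact intervals, which cover counting error only. Recovered reads numbered 32196547 (IM), 36125167 (CM) and 25418981 (CMT).

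Toll-like receptors are germline-encoded sensors of microbial molecules and of some molecules released by damaged cells. TLR1, TLR2, TLR4, TLR5 and TLR6 act at the cell surface, while TLR3, TLR7, TLR8 and TLR9 detect nucleic acids in endosomes. CD14 passes lipopolysaccharide to TLR4 and its partner LY96, and MYD88 is the adaptor used by all of the family except TLR3. The pathway ends in NF-kappa B and interferon regulatory factors. In the liver, which receives blood from the gut, these receptors are known from Kupffer cells, sinusoidal endothelium and hepatocytes.

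TLR2 is the member that the study also measured by qRT-PCR, and its primers are shown because they define the part of the transcript that assay read. Both are 20 bases long and are given 5′ to 3′ in lower case, with no base marked. The qRT-PCR values were not analysed here.
TLR2 forward primer: tttgtgaagagcgagtggtg
TLR2 reverse primer: atgggttccagcagaatgag

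CD14 had by far the highest level of the set. Its FPKM was 2374 (IM), 2089.8 (CM) and 1945 (CMT), above 98.1%, 98.1% and 97.7% of all mRNA features. MYD88 and the receptors lay more than 10-fold lower. In IM the order was TLR5, MYD88, TLR3, TLR1, TLR4, TLR9, TLR2, TLR7 and TLR8, from an FPKM of 107 down to 13.3. The counting intervals of TLR5, MYD88, TLR3 and TLR1 overlapped from neighbour to neighbour, and so did those of TLR9, TLR2 and TLR7. TLR8 was the lowest member in all 3 libraries, and its interval lay apart from that of the next member in each of them. TLR2 stood at position 8 of 10 in IM, at position 7 in CM, where its interval overlapped that of TLR1, and at position 7 in CMT. TLR5 stood at position 2 (IM), 4 (CM) and 6 (CMT). FPKM is a value per length, so these levels can be set side by side between genes.

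**Figure D1:**
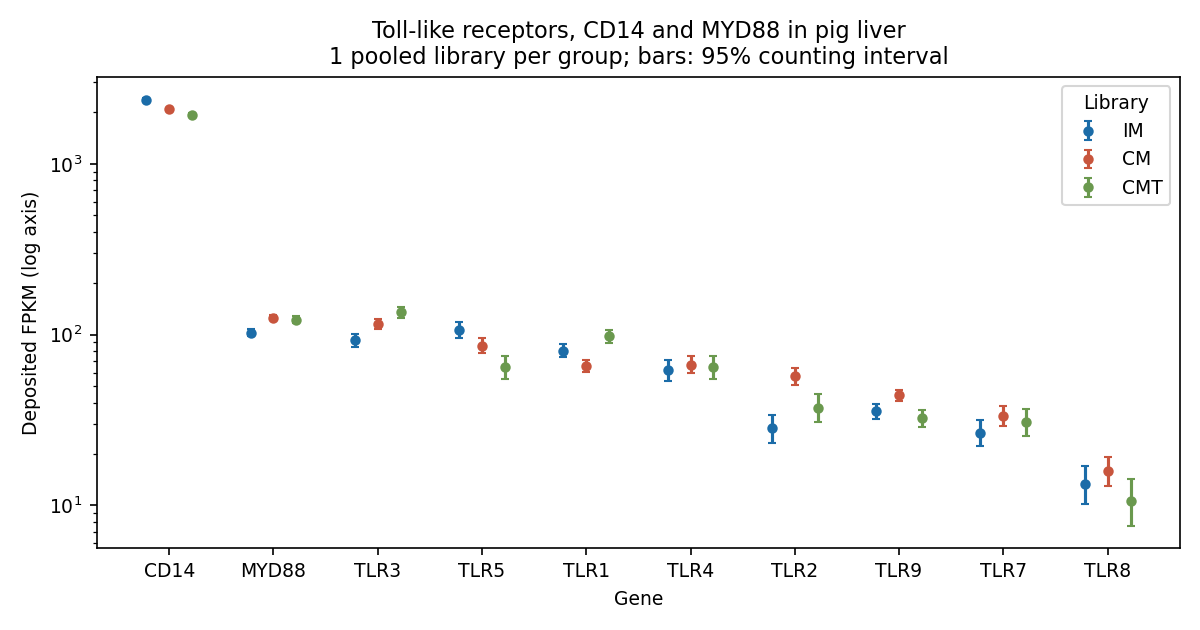
Deposited FPKM of each member (vertical log axis) in the IM, CM and CMT libraries, 1 pooled library per group, with bars for the 95% counting interval. CD14 lies between 1945 and 2374, while the other 9 genes lie between 10.5 and 135, and the CM intervals of TLR2 and TLR9 lie above those of both other libraries.

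Between CM and IM, 1 of the 10 members differed by at least 1.5-fold, TLR2, which was higher in CM. Of all 15613 mRNA features that reached 1 FPKM in every library, 23.2% differed by that much, 11.1% being higher and 12.1% lower in CM. The median log2 ratio of the members was 0.27, against -0.020 over all features, and 7 of the 10 lay above 0. Between CMT and CM, TLR2 and TLR8 were lower in CMT, which makes 2 of 10 members against 25.7% of all features, 12.1% being higher and 13.5% lower in CMT. The median of the members was -0.11 and that of all features 0.013. Between CMT and IM, only TLR5 differed, and it was lower in CMT, which is 1 of 10 members against 16.8% of all features, 6.67% being higher and 10.1% lower in CMT. The medians were 0.14 and -0.0072. With deposited values, at 1.5-fold and a minimum of 1 FPKM, the share of members called was no larger than the background in each comparison. Under some other settings it was larger. The comparisons share libraries and are not independent of each other.

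**Figure D2:**
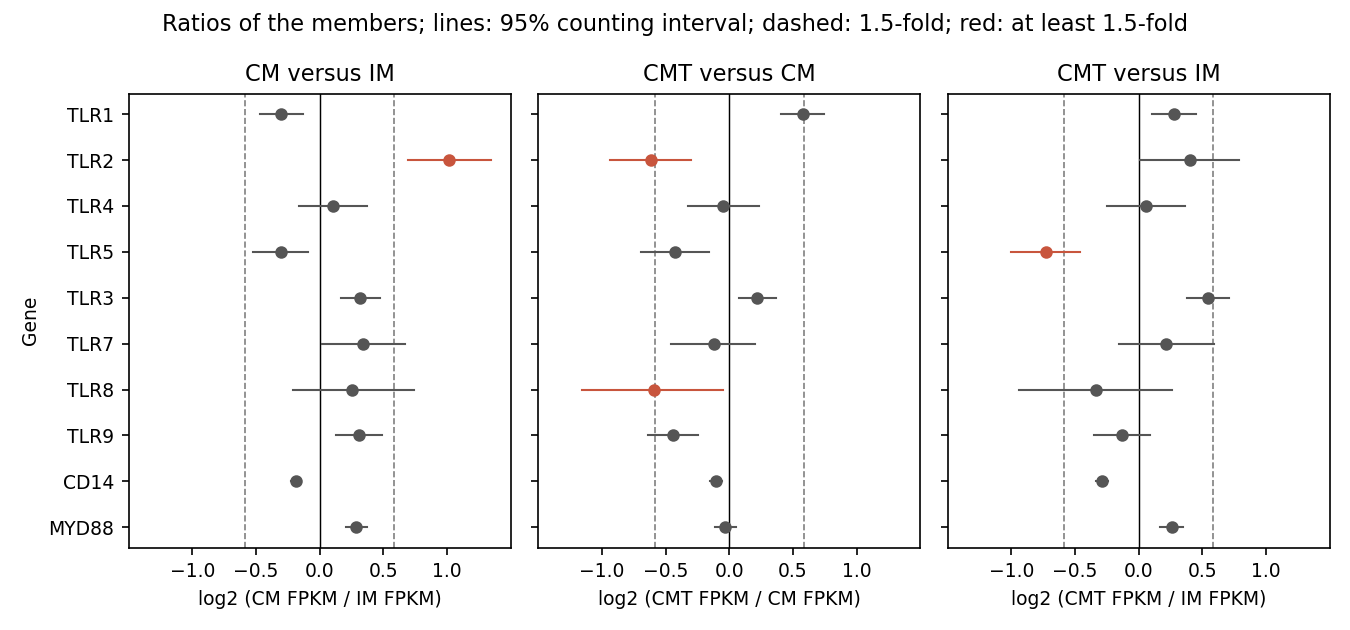
Log2 ratio of FPKM values for each member in the 3 comparisons, with lines for the 95% counting interval, dashed lines at 1.5-fold and members past 1.5-fold in red. TLR2 lies at 1.01 for CM versus IM and at -0.61 for CMT versus CM, and TLR5 lies at -0.73 for CMT versus IM.

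TLR2, which recognises bacterial lipopeptides as a partner of TLR1 or TLR6, had an FPKM of 28.2 (IM), 57.0 (CM) and 37.3 (CMT). These values rested on 109, 300 and 117 recovered reads. The CM library was the high one, and its counting interval of 50.8 to 63.9 lay above those of IM (23.2 to 34.1) and CMT (30.8 to 44.7). The CM to IM ratio was 2.02 (1.62 to 2.54), and CMT was 1.53-fold lower than CM (1.23 to 1.91). CMT remained above IM by a ratio of 1.32 (1.01 to 1.73), which is below the 1.5-fold threshold. When the reads were divided by 2, since the 2 mates of a read pair had frequently been counted separately, the CM to IM interval was 1.47 to 2.81 and the CMT to IM interval was 0.897 to 1.95. On the deposited scale TLR2 alone of the members was at least 1.5-fold apart in CM from both IM and CMT, and TLR9 joined it when libraries were scaled to equal recovered reads. Over all features, 6.87% were higher in CM than in both and 7.12% were lower.

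The partners of TLR2 did not share its pattern. TLR1 had an FPKM of 80.7 (IM), 65.5 (CM) and 97.7 (CMT), so that CM was the low library. It was 1.23-fold lower in CM than in IM (1.10 to 1.38), and the CMT to CM ratio was 1.49 (1.33 to 1.67), just under the threshold, as that of TLR2 was just over it. TLR6, a further partner, had an FPKM of 33.2 (IM), 30.4 (CM) and 30.4 (CMT), and all of its ratio intervals included 1. The level of TLR2 relative to TLR1 was therefore 0.350 (IM), 0.870 (CM) and 0.382 (CMT). Relative to TLR6 it was 0.851, 1.88 and 1.23. TLR10, the remaining receptor of the family in this chromosomal cluster, was near the detection limit, with 9, 11 and 5 reads and an FPKM of 2.51, 2.25 and 1.71. TLR10, TLR1 and TLR6 follow each other directly in the RefSeq annotation of the later build Sscrofa11.1, and TLR6 is also given there as an older name of TLR1. Reads of such related neighbours may be split between them, so their single values are uncertain. The summed FPKM of the 3 genes was 116 (IM), 98.1 (CM) and 130 (CMT), a CM to IM ratio of 0.843 on the deposited scale.

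TLR4, the lipopolysaccharide receptor, differed little between the libraries on the deposited scale. Its FPKM was 62.1 (IM), 66.7 (CM) and 64.6 (CMT), from 201, 294 and 170 reads. The CM to IM ratio was 1.07 (0.894 to 1.29) and the CMT to CM ratio 0.969 (0.798 to 1.17), so a difference was not detectable at this depth. A change of 1.5-fold lay outside both intervals, but they cover counting error on the deposited scale only and cannot exclude such a change. With libraries scaled to equal recovered reads the log2 ratios were 0.38 and -0.28, and the sign for CMT versus IM depended on the scaling, from -0.0040 to 0.099. TLR5, the flagellin receptor, was highest in IM at 107, with 86.4 in CM and 64.4 in CMT. The CMT library was the low one, 1.66-fold below IM (1.38 to 2.01), and CM was 1.24-fold below IM (1.07 to 1.43). For CM versus IM, scaling to equal recovered reads moved the log2 ratio of TLR5 to -0.027. The TLR5 interval for the CMT to CM ratio, 0.618 to 0.896, lay below 1.

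The 4 receptors of endosomes each had a higher value in CM than in IM, by ratios of 1.20 to 1.27, and none reached 1.5-fold on the deposited scale. TLR3, which binds double-stranded RNA, had an FPKM of 92.7 (IM), 116 (CM) and 135 (CMT). Its CM to IM ratio was 1.25 (1.12 to 1.39) and its CMT to IM ratio was 1.46 (1.30 to 1.63), so that CMT was the highest library. Between CMT and CM the sign for TLR3 depended on the scaling, with log2 ratios from -0.026 to 0.22. TLR7 and TLR8, receptors for single-stranded RNA, were low in all libraries. TLR7 had an FPKM of 26.6 (IM), 33.6 (CM) and 30.9 (CMT), with a CM to IM ratio of 1.27 (1.01 to 1.59). With the reads divided by 2 that interval was 0.921 to 1.75, which includes 1. TLR8 had an FPKM of 13.3 (IM), 15.9 (CM) and 10.5 (CMT), from 62, 101 and 40 reads. Its CM to IM ratio was 1.20, with an interval of 0.863 to 1.67 that includes 1. TLR8 was 1.51-fold lower in CMT than in CM (1.03 to 2.23), a difference that passed the threshold by little. With the reads divided by 2, the interval of that difference was 0.375 to 1.13 as a ratio. In RefSeq on Sscrofa11.1 TLR7 lies within the span of TLR8, and TLR7 is also an older name of TLR8, so their reads may not be cleanly divided. Their summed FPKM was 39.8 (IM), 49.5 (CM) and 41.4 (CMT), a CM to IM ratio of 1.24 and a CMT to CM ratio of 0.837. TLR9, which binds unmethylated CpG DNA, had an FPKM of 35.7 (IM), 44.1 (CM) and 32.5 (CMT). CM was the high library, with a CM to IM ratio of 1.24 (1.09 to 1.40), and CMT was 1.36-fold lower than CM (1.18 to 1.56).

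CD14 differed little between the libraries, although its many reads (9362, 11228 and 6232) gave narrow intervals. CM was 1.14-fold below IM (1.11 to 1.17) and CMT was 1.07-fold below CM (1.04 to 1.11). The sign of CD14 for CM versus IM depended on the scaling, with log2 ratios from -0.18 to 0.096. Relative to TLR4, CD14 stood at 38.2 (IM), 31.3 (CM) and 30.1 (CMT). The other carriers and partners of the lipopolysaccharide receptor differed more. LY96 (MD-2), which forms the binding pocket with TLR4, had an FPKM of 99.3 (IM), 188 (CM) and 148 (CMT), a CM to IM ratio of 1.90 (1.45 to 2.51) and a CMT to CM ratio of 0.786 (0.606 to 1.01). LBP, the plasma protein that carries lipopolysaccharide to CD14 and is made by hepatocytes as an acute phase protein, had an FPKM of 1452 (IM), 789.9 (CM) and 3323 (CMT). LBP was 1.84-fold lower in CM than in IM (1.77 to 1.91) and 4.21-fold higher in CMT than in CM (4.07 to 4.35). Thus, of the 4 genes of lipopolysaccharide recognition, TLR4 and CD14 stayed within 1.5-fold in every comparison, LY96 was highest in CM and LBP was lowest in CM.

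Of the further co-receptors, LY86 (MD-1), the partner of CD180, had an FPKM of 108 (IM), 69.7 (CM) and 114.5 (CMT), from only 58, 51 and 50 reads. CD180 had an FPKM of 24.1, 22.5 and 13.0 and was lower in CMT than in both other libraries. CD36, a scavenger receptor that can act with TLR2, had an FPKM of 31.1, 21.8 and 31.2, within 1.5-fold throughout. LRRC32, a leucine-rich repeat protein of the cell surface, was placed in the same list, although a role as co-receptor of this family is not shown here. Its FPKM was 39.8, 31.7 and 24.1. Among the 6 genes of receptor folding and transport, UNC93B1, which escorts the endosomal receptors, was level at 234, 241 and 248. CNPY3, a co-chaperone of the receptors, was at 226, 254 and 251. HSP90B1 (gp96), the chaperone that most receptors of the family need for folding, had an FPKM of 2015 (IM), 2291 (CM) and 4107 (CMT), and its CMT to CM ratio was 1.79 (1.75 to 1.84). TMED7, a cargo protein of the secretory route, was at 659, 497 and 1063, with a CMT to CM ratio of 2.14. AP3B1 was at 211, 174 and 235, and LAMP1 at 2261, 1886 and 2466, both within 1.5-fold.

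MYD88, the shared adaptor, had an FPKM of 103 (IM), 125 (CM) and 123 (CMT), from 2005, 3336 and 1948 reads. IM was the low library. On the deposited scale the CM to IM ratio of MYD88 was 1.22 (1.16 to 1.29). On that scale CMT and CM did not differ detectably, with a ratio of 0.979 (0.925 to 1.04). Both ratios kept their sign but shifted with the scaling. The log2 ratio of CMT to CM ran from -0.28 to -0.030, and that of CM to IM from 0.29 to 0.57. The lack of a detectable difference between CMT and CM therefore rests on the deposited scale. In RefSeq on Sscrofa11.1 MYD88 lies within the span of ACAA1, a peroxisomal enzyme gene whose FPKM here was 3273, 2339.9 and 3166. TLR9 likewise overlaps TWF2 there. Strand and counting settings are not stated, and whether reads were exchanged between these genes was not tested. Among the other adaptors, TIRAP, which links MYD88 to TLR2 and TLR4, had an FPKM of 42.1, 57.1 and 59.7 and lay within 1.5-fold. TICAM1 (TRIF), the adaptor of TLR3, was at 297 (IM), 347 (CM) and 260.3 (CMT), and TICAM2, which joins it to TLR4, was at 57.8, 51.7 and 56.1. PIK3AP1, which couples the receptors to phosphoinositide 3-kinase, was higher in CM than in IM by a ratio of 1.54 (1.45 to 1.63), at 225, 346 and 291. SARM1, an adaptor that dampens signalling, was 1.64-fold lower in CM than in IM, at 46.2, 28.1 and 38.2.

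The other genes of the pathway formed 8 lists of 76 genes, of which 75 were matched and 70 passed the FPKM minimum. The lists were chosen with earlier results of these data known, so a share above the background is a description and not a test. Between CM and IM, 10 of the 70 were at least 1.5-fold higher and 15 at least 1.5-fold lower in CM, 35.7% against the background of 23.2%. Between CMT and CM, 11 were higher and 10 lower in CMT, 30.0% against 25.7%. Between CMT and IM, 3 were higher and 9 lower in CMT, 17.1% against 16.8%. The medians were 0.011, -0.022 and 0.028 on the log2 scale. Genes of the pathway thus lay on both sides of 0. By at least 1.5-fold against IM and CMT alike, CM was the high library for 6 of the 70 and the low one for 9. Over all features these shares were 6.87% and 7.12%. At a threshold of 2-fold, 8 of the 70 differed between CM and IM, against 9.38% of all features. Between CMT and CM 11 did, against 11.2%. The split of directions depended on the scaling. With libraries scaled to equal recovered reads, CM exceeded IM for 17 genes and lay below it for 7, while CMT exceeded CM for 8 and lay below it for 21.

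**Figure D3:**
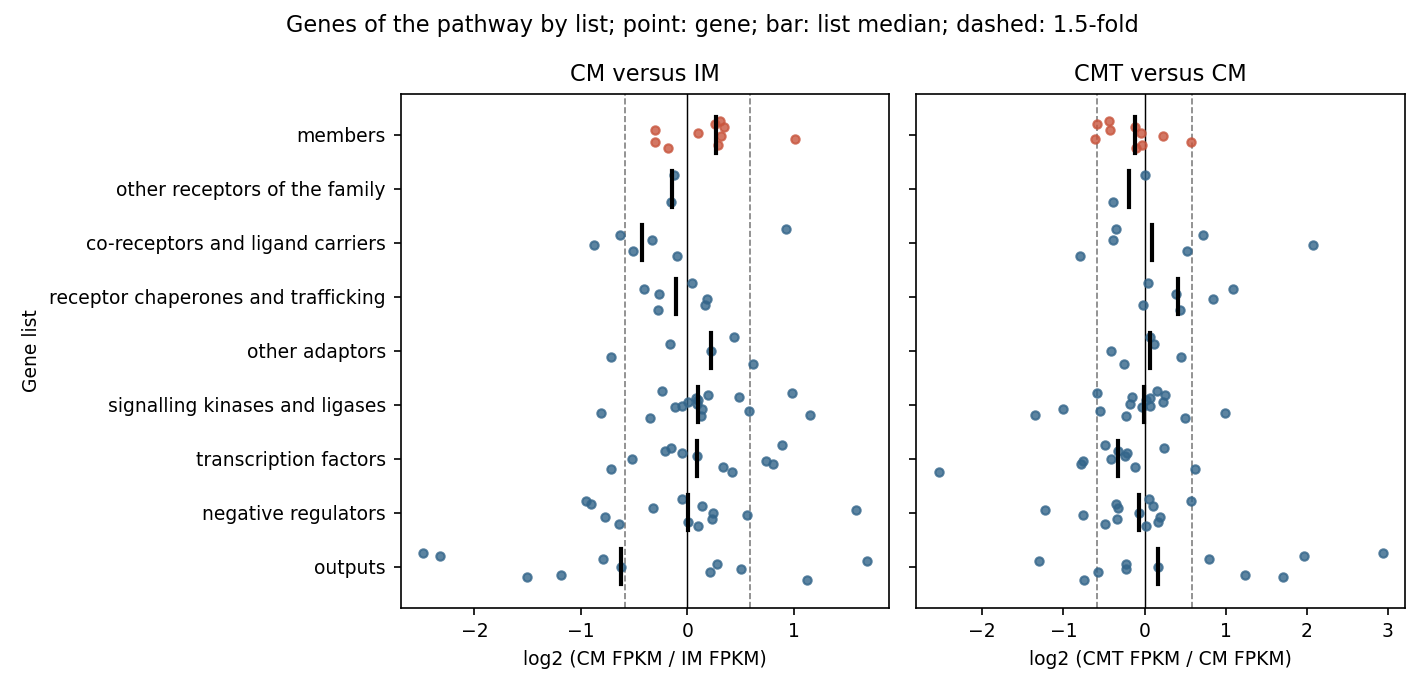
Log2 ratio of FPKM values for the genes of each list that passed the FPKM minimum, for CM versus IM (left) and CMT versus CM (right). Points are genes, black bars are list medians and dashed lines mark 1.5-fold. Members in red lie within 1.5-fold apart from TLR2 on the left and TLR2 and TLR8 on the right, while the outputs spread from -2.49 to 1.68 in CM versus IM.

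Among 16 kinases and ubiquitin ligases, 13 lay within 1.5-fold between CM and IM, with a median log2 ratio of 0.10. TRAF3, a ubiquitin ligase of the interferon branch, is named because its pattern was the most like that of TLR2. It was at 11.6 (IM), 22.8 (CM) and 15.2 (CMT), from 42, 113 and 45 reads. IKBKE, a kinase of the same branch, was at 7.16, 15.9 and 6.25 and stood highest in CM against both libraries. Reads could not be recovered for IKBKE, so it has no counting interval. IKBKG (NEMO), the regulatory subunit of the I kappa B kinase, was at 207, 118 and 235 and stood lowest in CM. TBK1, which phosphorylates IRF3, was at 208, 238 and 284. Among 11 transcription factors, CM exceeded IM by at least 1.5-fold for RELB, IRF7 and IRF8 and lay below it for IRF3. RELB, an NF-kappa B subunit named here after its values were seen, was at 50.0, 92.5 and 66.1, from 27, 68 and 29 reads. With the reads divided by 2, its CM to IM interval was 0.959 to 3.77. IRF7 and IRF8 were highest in CM, at 143, 248 and 145 for IRF7 and at 197, 329 and 195 for IRF8. IRF3, which lies downstream of TICAM1, was lowest in CM, at 476, 289 and 447. FOS and JUN had the highest mean levels, and both were lowest in CMT, with FOS at 630.2, 842 and 145 and JUN at 1761, 1231 and 925.

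Of the 13 matched negative regulators, 1 was at least 1.5-fold above its IM level in CM and 4 were at least 1.5-fold below it, against 11.1% and 12.1% of all features. NFKBIA, the inhibitor that NF-kappa B itself induces, was at 1539 (IM), 901 (CM) and 1024 (CMT). DUSP1, a phosphatase that ends MAP kinase signalling, was at 2021, 1294 and 926. TNFAIP3 (A20), a ubiquitin-editing enzyme, and SOCS1 were the other lower genes, chosen here after their values were seen, at 204, 105 and 156 and at 72.0, 38.3 and 30.0. PELI3 was the higher gene, at 2.94, 8.83 and 3.78, from 22, 90 and 23 reads.

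The outputs of the pathway differed in opposite directions. TNF had an FPKM of 106 (IM), 19.0 (CM) and 145 (CMT), from 222, 54 and 246 reads, and was 5.60-fold lower in CM than in IM (4.14 to 7.69). IL1B was at 30.0, 6.01 and 23.5 but rested on 11, 3 and 7 reads, and its ratio of CMT to CM had an interval of 0.893 to 23.4. The chemokines CCL3L1, at 862, 303 and 984, and CCL4, at 1271, 559 and 1318, and the cytokine IL10, at 19.8, 11.4 and 19.9, were also lowest in CM. IL10 rested on only 33, 26 and 27 reads, and its CMT to CM ratio had an interval of 0.978 to 3.1. With the reads divided by 2, the CM to IM interval of IL10 was 0.257 to 1.27. CXCL10, an interferon-induced chemokine, was highest in CM, at 1582, 5085 and 2058, with a CM to IM ratio of 3.21 (3.10 to 3.34). CCL2, which draws monocytes, was at 74.3, 162 and 96.1. In all, of the 11 outputs that passed the minimum, 2 were at least 1.5-fold higher in CM and 6 at least 1.5-fold lower, against 11.1% and 12.1% of all features. CD80, named after its values were seen, was among the latter. IFNB1 is listed at 0 in all 3 libraries.

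Pooled liver RNA holds several cell types, and more cells of a type or more RNA per cell cannot be told apart. Hepatocyte markers dominated, with ALB and TF at the top. For the 11 matched Kupffer cell and macrophage markers, led by C1QC and C1QA, the summed FPKM was 15758 (IM), 15964 (CM) and 17701 (CMT). From 75.7% to 80.2% of that sum came from the 3 complement genes C1QA, C1QB and C1QC, and single markers went both ways, with CM to IM ratios of 0.200 for MARCO and 1.56 for MSR1. Of the 10 neutrophil and monocyte markers, led by FCN1 and S100A12, 6 lay below their IM level in CM by at least 1.5-fold, against 12.1% of all features. Single markers went both ways here too, with CSF3R, CXCR2 and ELANE above their IM level in CM by ratios of 1.31, 1.13 and 1.07. The list summed to 326, 167 and 227, and without FCN1 to 219, 106 and 87.7. Several of these markers rested on few reads, as S100A8 did on 20, 10 and 1. The 7 sinusoidal endothelial markers, led by CLEC4G and FCGR2B, summed to 4620, 3843 and 4356. No marker of any list was at 0 in all 3 libraries.

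Several marker lists had CM above IM and CMT below CM, as TLR2 did. For CMT versus IM they differed, with TLR2 at a log2 ratio of 0.40. The medians of the markers that passed were then 0.025 for pan-leukocyte and -0.46 for T and NK cell markers. They were 0.094 for dendritic and B cell and 0.18 for cholangiocyte markers. The 5 pan-leukocyte markers, led by LAPTM5 and CD53, summed to 1301, 1748 and 1256, and all 5 lay above 0 on the log2 scale in CM versus IM, none by 1.5-fold. The 11 T and NK cell markers, led by NKG7 and CD4, summed to 684, 876 and 559, and all 11 lay above 0. Of the 11 dendritic and B cell markers, led by IL3RA and TCF4, the 8 that passed the minimum all lay above 0, with sums of 83.8, 109 and 79.8. The sum of that whole list, 451, 410.3 and 415, ran the other way, because it was carried by the feature matched to IL3RA, which is not an mRNA feature. Of the 5 cholangiocyte markers that passed, 4 lay above 0, with a median log2 ratio of 0.75 in CM versus IM and -0.58 in CMT versus CM. The medians of the same kind were 0.39 and -0.49 for dendritic and B cell markers, 0.45 and -0.80 for T and NK cell markers, and 0.29 and -0.23 for pan-leukocyte markers. Counts of directions over markers that passed the minimum describe these libraries only, and the part of these cell types in the TLR2 result was not tested.

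**Figure D4:**
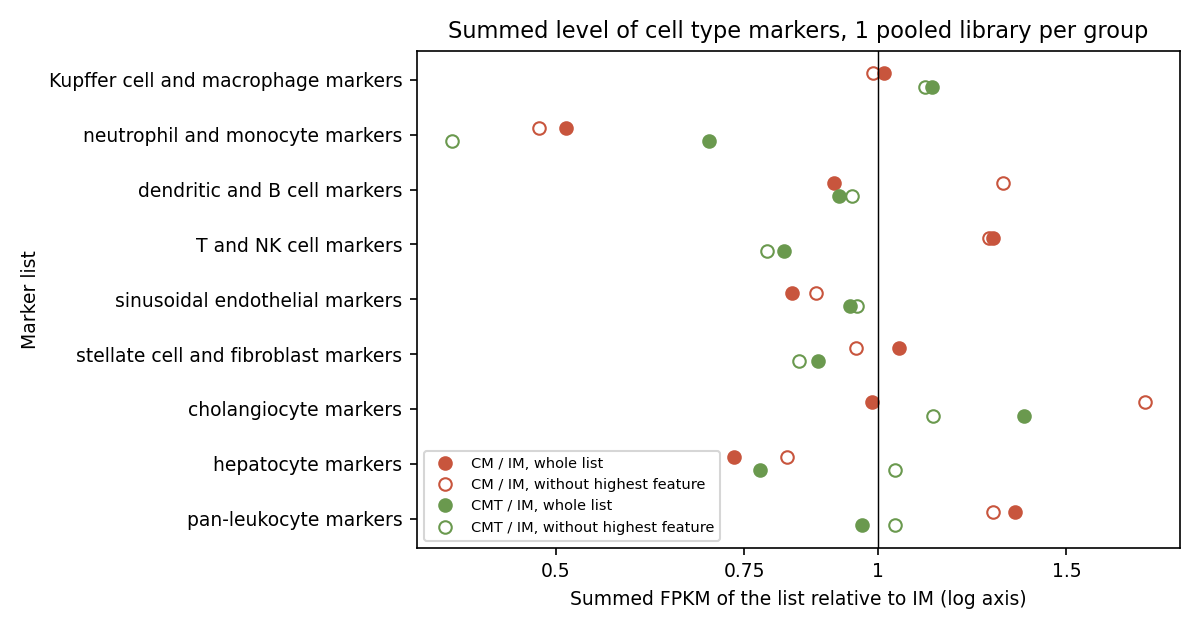
Summed FPKM of each cell type marker list in CM and CMT relative to IM (horizontal log axis), 1 pooled library per group, with no replicate error. Filled points are whole lists and open points leave out the feature of highest mean level, which moves the CM ratio from 0.910 to 1.31 for dendritic and B cell markers and from 0.988 to 1.78 for cholangiocyte markers.

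The genes whose levels over the 3 libraries were most like those of TLR2 were sought among the other 12126 mRNA features that reached 10 FPKM in each library. Likeness was the distance between log2 FPKM values after each gene was centred on its mean. TRAF3, from the pathway itself, lay closest at 0.026, followed by TONSL at 0.031, LOC100523789 at 0.052, LOC102161575 at 0.053 and TNFSF13B at 0.056. In all, 24 features lay within 0.1 of TLR2. Within the same distance of CD14 lay 524 features, so the flat pattern of CD14 was common, and the closest were BAMBI, NKAP, C12H17orf59, SIAE and UBE4A. These distances rest on 3 libraries and describe them only.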

How the data were processed

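Liver RNA of 3 groups was measured by RNA-Seq, 1 pooled library each. Per the labels and the study's methods, the authors made poly-A selected libraries, checked reads with FastQC, mapped 100-bp paired-end reads with TopHat to the pig genome Sscrofa 10.2 and deposited FPKM values. The counting program, strand setting and annotation are not given in the sources used here. The trailing columns, empty but for spreadsheet errors beside 3 genes, were not used.

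The deposited FPKM values are whole multiples of a step set by the gene length and by a divisor. That divisor was 2.51 (IM), 3.42 (CM) or 2.04 (CMT), which is not in proportion to the recovered reads. A standard FPKM on the recovered reads would use a much larger divisor, so deposited levels exceed such an FPKM in every library. The smallest length up to 10000 bases that made all values whole within 0.001 gave the reads for 95.2% of the 24277 features above 0. A common factor can be lost, which makes intervals too wide. Counting both mates makes them too narrow. The recovery was tested on simulated data. Intervals are 95% exact Poisson for a level and exact binomial (Clopper-Pearson) for a ratio. PCR reads are not independent molecules.

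Ratios used deposited values without rescaling or pseudocount, for mRNA features that reached 1 FPKM in each library. The study's DEGSeq test was not repeated, since it compares libraries. Members and gene lists were chosen with earlier results of these data known. Of the pathway lists, named were all receptors, co-receptors, chaperones and adaptors, the 2 genes of highest mean level per list and those 1.5-fold apart in CM from both groups, and the 5 genes most like TLR2 and CD14 in pattern. List genes were matched by symbol, or by RefSeq synonym or gene ID. Alternatives tried were 4 other scalings, a pseudocount of 1, a threshold of 2-fold, an FPKM minimum of 10 or none, and the requirement that the counting interval exclude 1. Software versions were matplotlib 3.10.9, scipy 1.17.1, pandas 2.3.3 and numpy 2.4.6 on Python 3.11.15.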

Additional observations from a re-analysis of the deposited data

How the results depend on the processing

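The number of members past 1.5-fold depended on the scaling. For CM versus IM it was 1 as deposited, 2 (TLR2 and TLR7) with libraries scaled to an equal FPKM sum and 4 (TLR2, TLR3, TLR7 and TLR9) with equal recovered reads, with medians of 0.53 and 0.55. These scalings moved the median of all features to 0.24 and 0.26, and relative to it the members lay where they did before. For CMT versus CM the number of members was 2 as deposited and 4 under both scalings (TLR2, TLR5, TLR8 and TLR9). The member medians were -0.36 and -0.35 and the medians of all features -0.23 and -0.22. The share of all features was 29.6% and 29.2%, below that of the members. These are counts of 1 library per group. With a pseudocount of 1 the number for CMT versus CM was 1 (TLR2). It was also 1 when the interval on reads divided by 2, an alternative chosen after seeing the data, had to exclude 1. At a threshold of 2-fold TLR2 and TLR8 dropped out of CMT versus CM, leaving 0, and TLR5 dropped out of CMT versus IM, leaving 0 in place of 1, while TLR2 remained past the threshold for CM versus IM. No called member changed its sign under any scaling. Without replicates no library could be left out. No paired analysis was possible because each group had 1 library.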

Other observations

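Several genes of the pathway had their extreme value in CMT. FOS, JUN, SOCS1, DUSP1, IRAK2 and CD180 each had their lowest value there, and HSP90B1, TMED7 and LBP their highest. IRAK2, a kinase recruited after MYD88, was at 19.6 (IM), 21.6 (CM) and 10.7 (CMT), from 36, 54 and 16 reads. RNF216, a ubiquitin ligase that acts on receptors of the family, was at 55.3, 44.3 and 35.4. These genes were picked after their values were seen.

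Cholangiocyte markers, led by SPP1 and EPCAM, summed to 906 (IM), 895 (CM) and 1242 (CMT), and without SPP1 to 93.8, 167 and 106, while EPCAM and CFTR were highest in CM, at 36.6, 62.6 and 41.4 and at 4.34, 7.31 and 3.34. Stellate cell and fibroblast markers, led by ACTA2 and COL3A1, summed to 1606, 1681 and 1412, with none past 1.5-fold in CM versus IM. Hepatocyte markers had summed ratios of 0.734 for CM to IM and 1.06 for CMT to CM, and without ALB of 0.822 and 1.26.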
